A study of Mus musculus with 16 samples.

Results

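MPP3 and MPP4 cells, the myeloid-biased and the lymphoid-biased multipotent progenitors of mouse bone marrow, were compared within the mice labelled Ebf1 KO. The comparison held 8 of the 16 RNA-seq libraries of the series, 4 of MPP3 and 4 of MPP4, and each KO mouse gave 1 library of each population under the same replicate number. KO mice were Ebf1fl/fl and carried Tie2Cre +/cre, a Cre recombinase under the promoter of Tek (Tie2), which is active in endothelial and blood-forming cells. The study bred the transgene through males, because female carriers passed on a deleted Ebf1 allele. KO mice 1 and 2 were males of 10 and 9 weeks, and KO mice 3 and 4 were females of 11 weeks. The 8 libraries of the 4 WT mice served only as a reference for the same population difference. WT mice 1 and 2 were females and WT mice 3 and 4 were males, all aged 11 or 12 weeks. The labels gave the WT mice as Ebf1fl/fl Tie2Cre+/+, which in the notation of the KO label names no Cre allele. The series description instead gave them Tie2Cre with unfloxed Ebf1. The methods of the study name littermates of either kind as controls, flox/flox or +/Cre. Cells were taken from lineage-depleted marrow as Kit+ Sca1+ CD150- CD48+ cells, and MPP4 cells were in addition positive for Flt3. The labels named no Flt3 limit for MPP3, while the antibody panel of the study gave that gate as Flt3-.

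Multipotent progenitors are short-lived descendants of the haematopoietic stem cell that no longer self-renew for long but still give rise to several blood lineages. MPP3 cells feed mainly the granulocyte and monocyte branches, whereas erythroid and platelet output is attributed mainly to MPP2 cells, which were not analysed here. MPP4 cells feed mainly the lymphoid and dendritic cell branches under signals through the receptor FLT3. Before commitment, such cells already transcribe low levels of genes that belong to their likely fates, which is called lineage priming. EBF1 is a transcription factor that specifies the B cell lineage together with E2A (Tcf3) and PAX5. The comparison asked which differences between the populations were present in mice in which Ebf1 was targeted.

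The 8 KO libraries held between 27792453 and 40010393 counts, so that 3 counts, the limit taken for a count of 0, corresponded to 0.0750 to 0.110 CPM (the count scaled to a common library total). The first principal component took 50.5% of the variance and separated MPP3 from MPP4, and the second took 16.8% and separated mice 1 and 2 from mice 3 and 4, which also differed in sex and age. Xist and Y-linked transcripts matched the labelled sex in all 8 libraries. Mitochondrial transcripts took 0.365% to 0.420% of the counts in MPP3 and 0.392% to 0.490% in MPP4. A single KO library stood apart in its immunoglobulin light chain transcripts, as described with the B lineage genes. The gate antigens were read as a check of the labels and not as findings. Flt3, the antigen that divided the gates, measured 283, 267, 226 and 203 CPM in MPP3 of KO mice 1 to 4 and 1010.4, 928, 1079 and 986 CPM in MPP4, a 4.12-fold difference with no overlap. Kit transcripts were higher in MPP3 at 664 ± 21.98 against 405 ± 22.9 CPM (SD, n = 4), and Ly6a, which encodes Sca1, was lower at 41.4 ± 7.28 against 66.1 ± 10.1 CPM. Slamf1, which encodes the excluded antigen CD150, stayed under the limit for testing at 1.14 and 0.338 CPM.

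The targeted gene itself differed between the populations. Ebf1 (ENSMUSG00000057098, chr11:44617317-45008091 of mm10) had 23, 6, 84 and 6 counts in MPP3 and 817, 928, 488 and 642 counts in MPP4 of KO mice 1 to 4. All 4 MPP4 libraries thus lay above all 4 MPP3 libraries, at 20.9 ± 3.68 against 0.790 ± 0.971 CPM (log2 fold change of MPP3 over MPP4 -5.05 ± 0.50 SE, FDR 1.38e-05). In WT mice Ebf1 measured 4.43, 3.33, 4.18 and 6.26 CPM in MPP4, below each of the 4 MPP4 libraries labelled KO, so the gene count in MPP4 went against the label. By contrast Igkc, the kappa light chain gene of B lineage cells, measured 381, 362, 83.8 and 68.7 CPM in MPP3 of WT mice, above 0, 0, 60.8 and 0 CPM in MPP3 of KO mice, a difference between genotypes that was not tested here. Gene counts do not tell intact from recombined transcripts, and Ebf1 overlaps another annotated gene, so the count checks the deletion in neither direction. The libraries are therefore named by their labels, and every statement on KO mice rests on those labels.

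Of 11571 genes tested across the 8 KO libraries, edgeR called 3524 at a false discovery rate (FDR) under 0.1, which was 30.5% of them. Transcripts of 1706 genes (14.7%) were higher in MPP3 and those of 1818 genes (15.7%) were lower. At an unadjusted p under 0.05 there were 4034 genes. The fit took the mouse as a block, and without the replicate block the count fell to 1967 genes, 930 higher and 1037 lower, all of them also called with it in the same direction. Most called differences were modest, with a median absolute log2 fold change of 0.45, while 338 called genes were more than 2-fold higher in MPP3 and 336 more than 2-fold lower. More than 16-fold differences were seen for 37 called genes in the direction of MPP3 and 27 in the direction of MPP4. The libraries of the populations did not overlap for 2001 genes, which was 17.3% of those tested. Below, a log2 fold change is that of MPP3 over MPP4 with its standard error, positive where MPP3 was higher, and levels are CPM as mean ± SD over 4 mice. Of the 222 list or named genes that were called, 212 differed in the called direction in all 4 mice, against 3247 of all 3524 called genes. The agreement is a description, since the largest differences were named on condition of it. The other 10 were Irf9, Plek, Ifnar1, Ltb, Gfi1b, Itgal, Cenpe and Tpsb2, in 3 of 4 mice each, and Igkc and Iglc1, in 1 of 4. The filter asked for a mean above 100 counts in either population. A gene that passed through 1 population alone thus had the higher mean count there by construction. List counts are therefore also given over the members that passed in both. The counts of every list are to be read against the 14.7% of all tested genes called higher and the 15.7% called lower. Because these were bulk samples, fewer cells of a type and less RNA per cell cannot be told apart in any of the values.

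**Figure D1:**
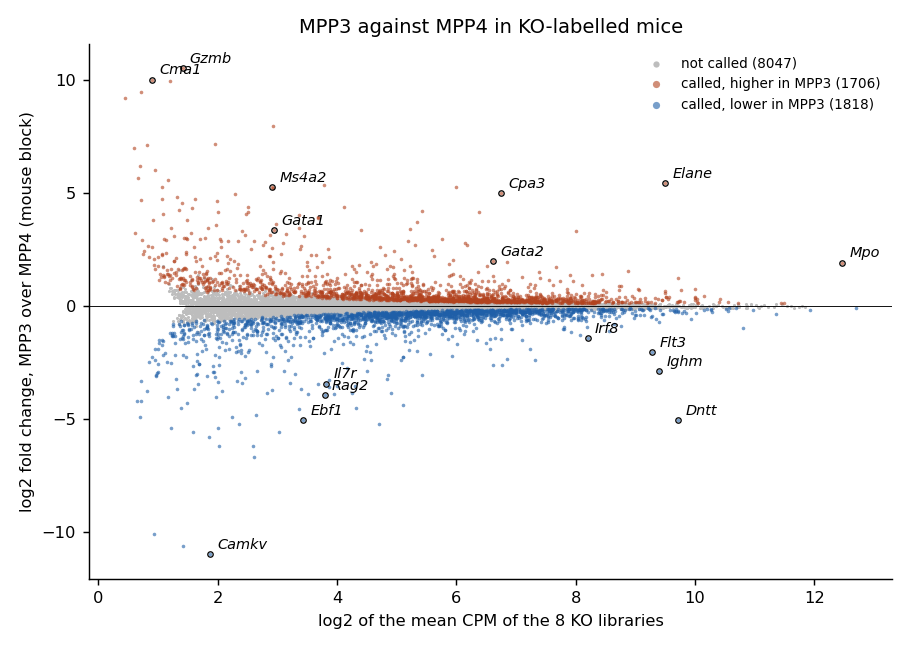
Log2 fold change of MPP3 over MPP4 in the fit with mouse as a block (y axis) against log2 of the mean CPM over the 8 KO libraries (x axis), 1 point per tested gene, with called genes in colour. The 1706 genes called higher in MPP3 and the 1818 called lower lie on both sides of 0 over the whole range of levels. Points near 10 or -10 are genes with no counts in 1 of the populations, whose fitted fold change is no bound.

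Genes of lymphoid priming were lower in MPP3 of KO mice almost throughout. Of 24 members tested, 22 were called lower, against 15.7% of all tested genes, and 1 higher, with a median log2 fold change of -2.07 against -0.00378 over all tested genes. Without the gate antigen Flt3, 21 of 23 were called lower. Of the 24, 6 passed the filter through MPP4 alone (Rag1, Rag2, Il7r, Blnk, Ccr7 and Ccr9), so that their lower values are a description. Of the 18 that passed in both populations, 16 were called lower and 1 higher. The median of the ratios within each mouse, taken on CPM with 1 added, lay between -1.92 and -1.52. Dntt (ENSMUSG00000025014, chr19:41029275-41059525), which encodes the polymerase that adds untemplated bases to antigen receptor joints, measured 78.8, 48.0, 45.5 and 32.0 CPM in MPP3 of mice 1 to 4 and 1818, 1816, 1474 and 1405 CPM in MPP4. The populations were far apart in every mouse, a 33.2-fold difference (log2 fold change -5.05 ± 0.13, FDR 3.39e-10). Il12a, a subunit of the cytokines IL-12 and IL-35, measured 42.7, 46.7, 59.0 and 59.6 CPM in MPP3 and 243, 249.6, 282 and 298 CPM in MPP4, with little spread in either population (-2.37 ± 0.06, FDR 3.72e-10). The recombinase genes were rare in MPP3. Rag1 measured 0, 0, 0.316 and 0.1 CPM in MPP3 and 4.96, 2.91, 2.92 and 1.78 CPM in MPP4 (-4.92 ± 0.70, FDR 0.000241), and Rag2 had mean levels of 1.83 and 25.9 CPM (-3.94 ± 0.29, FDR 1.06e-06). Il7r, the receptor chain for the lymphoid growth factor IL-7, measured 1.74, 2.63, 1.71 and 3.67 CPM in MPP3 against 31.1, 25.3, 19.0 and 27.5 CPM in MPP4 (-3.43 ± 0.21, FDR 1.78e-07).

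The other members were mostly lower as well. The adaptor gene Blnk (log2 fold change -3.55), the chemokine receptor genes Ccr7 (-3.44) and Ccr9 (-3.41), Notch1 (-2.14) and Ly6d (-2.10) were all more than 4-fold lower in MPP3. The lymphoid transcription factor genes Satb1 (-1.51 ± 0.06), Mef2c (-1.12 ± 0.06), Bcl11a (-0.68 ± 0.06) and Ikzf1 (-0.62 ± 0.05) followed with less than 3-fold differences. Tcf3 measured 175, 184, 149 and 109 CPM in MPP3 and 237, 257, 253 and 129 CPM in MPP4 of mice 1 to 4. It was lower in MPP3 of each mouse (-0.48 ± 0.07, FDR 0.000497), while the groups overlapped, with low values in both libraries of mouse 4. The call was lost in both fits without the replicate block, and over 15 alternatives the FDR ran up to 0.384. Il2rg was not called (0.13 ± 0.06, FDR 0.119).

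The promoters of Dntt and Rag1 are shown because both genes serve antigen receptor assembly, were more than 16-fold lower in MPP3 and carry motifs searched for here. The windows, from RefSeq on GRCm38.p6, run from 250 bases before to 50 bases after the annotated start and are written along the gene's own strand. Capitals mark exact matches on either strand of AGATAA (or TTATCT, for GATA factors), CAGGTG (for E proteins such as E2A), GAGGAAGT (for PU.1), TTGCGCAA (for C/EBP factors) and TGTGGTTA (for RUNX factors). The Dntt window (chr19:41029025-41029324, plus strand) holds AGATAA, and the Rag1 window (chr2:101649483-101649782, minus strand) holds CAGGTG and TGTGGTTA.
Dntt: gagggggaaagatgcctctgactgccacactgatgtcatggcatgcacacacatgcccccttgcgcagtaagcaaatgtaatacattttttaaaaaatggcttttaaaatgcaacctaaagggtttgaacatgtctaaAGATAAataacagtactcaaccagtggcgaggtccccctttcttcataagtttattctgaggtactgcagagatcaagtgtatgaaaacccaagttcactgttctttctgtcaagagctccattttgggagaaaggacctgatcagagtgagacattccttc
Rag1: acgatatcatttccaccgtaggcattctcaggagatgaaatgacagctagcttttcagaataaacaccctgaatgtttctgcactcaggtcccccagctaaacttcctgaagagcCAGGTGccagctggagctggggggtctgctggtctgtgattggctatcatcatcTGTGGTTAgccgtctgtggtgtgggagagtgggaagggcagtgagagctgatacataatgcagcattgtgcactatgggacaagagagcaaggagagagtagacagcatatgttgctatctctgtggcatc
Among the 8795 tested genes with a promoter in the RefSeq table, AGATAA was present in at least 1 window of 7.74%, CAGGTG in 19.6%, GAGGAAGT in 4.03%, TTGCGCAA in 0.352% and TGTGGTTA in 0.716%. Of the 243 such genes called more than 2-fold lower in MPP3, the shares were 9.05%, 25.9%, 7.82%, 0% and 2.06%. Of the 242 called more than 2-fold higher, they were 13.6%, 23.6%, 4.55%, 0% and 1.24%. Genes with several starts had several windows, and the matches are descriptions of letters and not of bound sites.

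Of 18 genes of the B progenitor list, 7 passed the filter, 4 were called lower in MPP3 and 1 higher, against 15.7% and 14.7% of all tested genes, with a median of -0.215. Of the 5 that passed in both populations, 3 were called lower, and Ebf1 and Iglc1 passed through 1 population alone. The member called higher was Iglc1. The 5 calls became 3 without the replicate block, 3 without replicate 3, and 9 when all genes with at least 1 count were tested. Beside Ebf1, the repressor gene Bach2 (-0.60 ± 0.14), the coreceptor gene Cd72 (-0.38 ± 0.07) and Cd79b (-0.21 ± 0.07), a signalling chain of the B cell receptor, were lower. Foxo1 (0.01 ± 0.17) and Cd24a (0.08 ± 0.07) were not called. Defining genes of later B cells were rare, since Pax5 had 0, 0, 9 and 0 counts in MPP3 and 0 counts in all 4 MPP4 libraries.

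Ighm, the constant region of IgM, measured 129, 129.6, 245 and 153 CPM in MPP3 of mice 1 to 4 and 1102, 1119.9, 1275 and 1238 CPM in MPP4 (-2.90 ± 0.10, FDR 2.77e-09). Ighd, the constant region of IgD, had 0.455 ± 0.384 against 12.0 ± 0.981 CPM (-4.82 ± 0.51, FDR 2.08e-05). It passed the filter through MPP4 alone. Of 185 heavy chain variable segment genes (Ighv), 8 passed the filter, all of them through MPP4 alone, so that their lower values in MPP3 are a description. The tally was made after values were seen. Ighv1-77 measured 0, 0.131, 0.132 and 0.425 CPM in MPP3 and 11.0, 8.21, 15.98 and 12.5 CPM in MPP4 (-6.18 ± 0.48, FDR 1.74e-06), and Ighv1-83 (-5.57 ± 0.49), Ighv1-82 (-5.40 ± 0.52) and Ighv1-74 (-5.22 ± 0.54) differed in the same direction. These segments are near copies of each other, so reads may have been divided among them and each single value is uncertain.

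Light chain transcripts came almost wholly from a single library. Igkc, the kappa constant region, had 0, 0, 2306 and 0 counts in MPP3 of mice 1 to 4 and 0, 0, 6 and 0 in MPP4, and Iglc1 had 0, 0, 415 and 0 and 0, 0, 0 and 0. Igha had 0, 0, 909 and 0 counts in MPP3 and 24, 31, 0 and 0 in MPP4. Jchain, the joining chain of IgA and IgM, had 0, 8, 778 and 3 counts in MPP3 and 18, 85, 31 and 27 in MPP4. For all 4 genes, which plasma cells transcribe abundantly, MPP3 of mouse 3 had the highest count, while lower counts of Igha and Jchain were also present in MPP4. The fitted calls of Igkc and Iglc1 as higher in MPP3 rest on that library. Neither gene passed the filter without replicate 3, and neither was called by the DESeq2 Wald test. Over the 15 plasma cell genes the summed level was 308 to 679 CPM in MPP3, with mouse 3 at the top, and 1293 to 1656 CPM in MPP4, where Ighm alone had more than 1100 CPM in each library. Of the 6 plasma cell genes tested, 2 were called higher and 2 lower in MPP3. Of the 3 that passed the filter in both populations, 1 was called higher and 2 lower. Sdc1, which encodes the plasma cell antigen CD138, was lower in MPP3 (13.2, 7.95, 10.6 and 5.30 against 49.9, 63.6, 113 and 79.8 CPM). The part of such cells in the other results was not tested. Of the mature B list, 5 genes were tested, with 4 called lower in MPP3 and Cd55 called higher (1.97 ± 0.36). Only 2 of the 5 passed the filter in both populations, both called lower. Bank1 passed through MPP4 alone and Cd55 through MPP3 alone. Bank1, a B cell scaffold gene (-2.57 ± 0.37), and the tetraspanin gene Cd37 (-0.40 ± 0.10) were among the lower ones.

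T and NK lineage genes went both ways. Of 11 tested members, 4 were called higher and 5 lower in MPP3, against 14.7% and 15.7% of all tested genes, with a median of -0.0529. Of the 8 that passed the filter in both populations, 3 were called higher and 4 lower. Tcf7 passed through MPP3 alone and Zap70 through MPP4 alone. Lck, a kinase of T cell receptor signalling, measured 40.4, 47.3, 34.0 and 40.1 CPM in MPP3 and 154, 174, 136 and 133 CPM in MPP4 (-1.88 ± 0.07, FDR 4.08e-09). The NK cell factor gene Nfil3 (-1.70 ± 0.19), the kinase gene Zap70 (-2.19 ± 0.52), Tox (-0.70 ± 0.11) and Cd4 (-0.92 ± 0.19) were lower too. On the other side, Tcf7, which encodes TCF1, measured 16.9, 10.9, 11.7 and 18.4 CPM in MPP3 and 1.92, 1.40, 0.622 and 0.929 CPM in MPP4 (3.60 ± 0.27, FDR 1.43e-06). Thy1 (1.95 ± 0.19), Gata3 (1.23 ± 0.13) and Id2 (0.37 ± 0.14, FDR 0.0768) were also higher in MPP3.

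**Figure D2:**
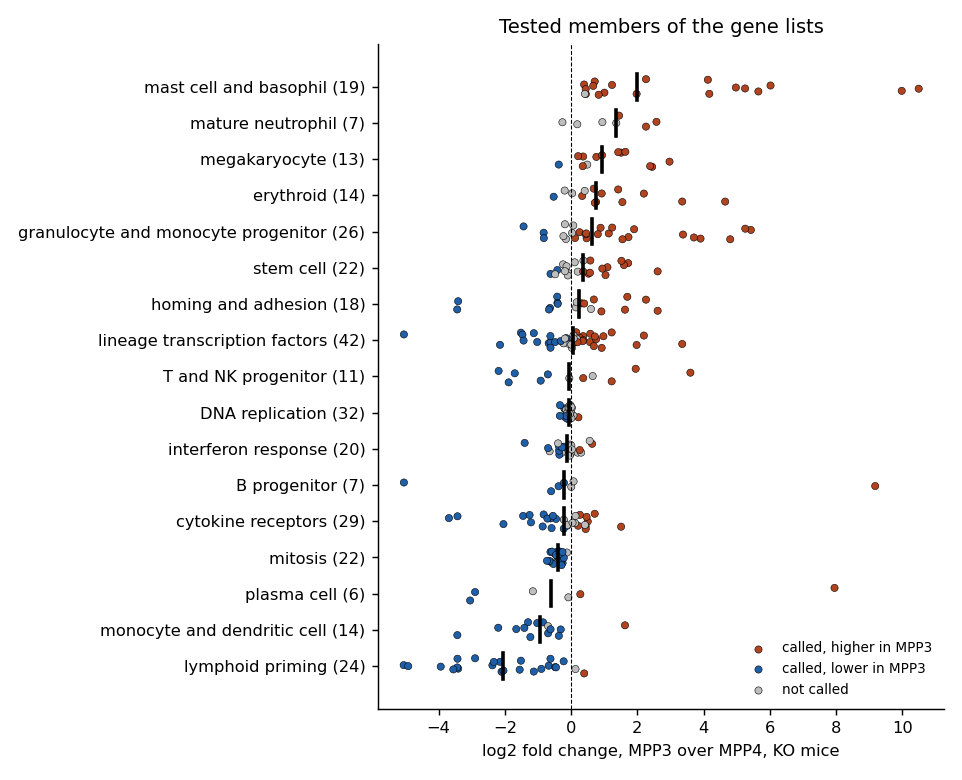
Log2 fold change of MPP3 over MPP4 in KO mice (x axis) for the tested members of each gene list with at least 6 of them (rows, number tested in brackets). Points are genes, coloured where called, black bars are list medians and the dashed line is the median of all tested genes. The medians run from -2.07 for lymphoid priming to 1.98 for mast cell and basophil genes.

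Genes of the granulocyte and monocyte progenitor list were mostly higher in MPP3, with 18 of 26 called higher, against 14.7% of all tested genes, and 3 lower, and a median of 0.639. Of the 24 that passed the filter in both populations, 16 were called higher and 3 lower. Fcnb and Cebpe passed through MPP3 alone. Elane, which encodes neutrophil elastase, measured 493, 1379, 1731 and 2072 CPM in MPP3 of mice 1 to 4 and 12.3, 49.6, 29.2 and 39.3 CPM in MPP4. Mouse 1 was low in both populations, and the 43.1-fold difference had its direction in each mouse (5.43 ± 0.15, FDR 4.74e-10). Mpo, myeloperoxidase, measured 4821, 8642, 11397 and 11184 CPM against 1721, 2386, 2768 and 2383 CPM (1.90 ± 0.09, FDR 1.67e-08). Ms4a3, a membrane gene of granulocyte and monocyte progenitors, measured 51.8, 122, 145 and 181 CPM against 1.06, 5.27, 1.97 and 4.97 CPM (5.26 ± 0.20, FDR 4.17e-09). Both had their lowest values in mouse 1 and did not overlap between populations. Cd63, a granule membrane protein gene, was more even among mice at 314 ± 15.9 against 94.6 ± 10.3 CPM (1.73 ± 0.06, FDR 1.99e-09). Fcnb (4.81), Cebpe (3.91), Fcgr3 (3.71), Igsf6 (3.38), Ctsg (1.55) and Prtn3 (1.24) were called higher as well.

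The Elane promoter is shown because Elane is a neutrophil granule gene among the 12 largest differences in the direction of MPP3. Its window (chr10:79886062-79886361, plus strand, GRCm38.p6, RefSeq) holds GAGGAAGT, in capitals.
Elane: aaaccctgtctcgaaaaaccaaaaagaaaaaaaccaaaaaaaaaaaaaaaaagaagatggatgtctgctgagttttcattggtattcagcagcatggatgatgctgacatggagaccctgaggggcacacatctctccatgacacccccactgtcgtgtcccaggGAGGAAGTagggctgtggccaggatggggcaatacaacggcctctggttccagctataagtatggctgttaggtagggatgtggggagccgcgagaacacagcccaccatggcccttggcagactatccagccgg

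Beside Cebpe, the transcription factor genes of this list differed less. Cebpa, which encodes the granulocyte factor C/EBP alpha, measured 26.6, 33.3, 33.6 and 23.3 CPM in MPP3 and 29.7, 30.1, 38.3 and 16.7 CPM in MPP4. The populations overlapped and the difference was not called (0.07 ± 0.13, FDR 0.755), with a sign that turned to -0.06 without replicate 4. Spi1, which encodes PU.1, was called at 331 ± 45.9 against 304 ± 34.8 CPM (0.12 ± 0.05, FDR 0.0917), a call lost under 8 of 15 alternatives, without each of the 4 mice among them. Cebpb (-0.18 ± 0.21) and Gfi1 (-0.23 ± 0.16) were not called, and Cebpd was higher in MPP3 (0.81 ± 0.13, FDR 0.000853). The 3 list members lower in MPP3 were Irf8, Csf1r and Clec12a, which are also used by monocytes and dendritic cells. Irf8 measured 97.6, 146, 226 and 184 CPM in MPP3 and 369.5, 421, 519.8 and 395 CPM in MPP4 (-1.43 ± 0.11, FDR 1.06e-06). Csf1r, the receptor for M-CSF, measured 24.6, 36.8, 42.7 and 38.1 CPM against 49.2, 62.7, 84.3 and 56.3 CPM (-0.83 ± 0.09, FDR 4.29e-05).

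Monocyte and dendritic cell genes were on the MPP4 side. Of 14 tested, 12 were called lower in MPP3, against 15.7% of all tested genes, and 1 higher, with a median of -0.933. Of the 12 that passed the filter in both populations, 11 were called lower and 1 higher. Itgax passed through MPP4 alone. Cd74, the invariant chain of MHC class II, measured 36.2, 36.1, 56.8 and 45.7 CPM in MPP3 and 129.9, 137, 159.9 and 118 CPM in MPP4 (-1.65 ± 0.09, FDR 1.12e-07). The class II chain genes H2-Aa (-1.30 ± 0.10), H2-Eb1 (-1.23 ± 0.16) and H2-Ab1 (-0.62 ± 0.06) were lower with it. Tcf4, which encodes E2-2, a factor of plasmacytoid dendritic cells, had 148 ± 7.52 against 301 ± 27.0 CPM (-1.02 ± 0.06, FDR 2.43e-07). Itgax, which encodes CD11c, measured 0, 0.361, 0.554 and 2.15 CPM in MPP3 and 4.51, 5.99, 8.45 and 3.39 CPM in MPP4, with mouse 4 the nearest pair (-3.43 ± 0.73, FDR 0.00452). The exception was Ccr2, the chemokine receptor of inflammatory monocytes, at 16.2, 30.9, 37.6 and 32.6 CPM in MPP3 against 5.17, 7.18, 15.7 and 11.4 CPM in MPP4 (1.63 ± 0.15, FDR 7.26e-06). Ly6c2, which encodes a part of the Ly6C antigen and has near copies in its gene family, measured 56.0, 168, 184 and 226 against 3.33, 13.5, 10.2 and 8.97 CPM (4.13 ± 0.14). Of 4 lineage antigen genes tested, Ly6c2 was the member called higher and Itgax the member called lower. The 2 calls of that list became 4 with filterByExpr and with all genes of at least 1 count.

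Of the mature neutrophil list, 7 of 15 genes were tested and 3 were called higher in MPP3, a count that became 5 without replicate 3, with filterByExpr and with all genes of at least 1 count. Of the 7, 4 passed the filter through MPP3 alone, and 1 of the other 3 was called. S100a8, S100a9 and Camp were among the 4. S100a8 measured 5.02, 21.5, 8.68 and 16.9 CPM in MPP3 and 1.21, 2.49, 2.67 and 1.64 CPM in MPP4 (2.58 ± 0.29, FDR 3.64e-05), S100a9 gave 1.45 ± 0.36 (FDR 0.0117) and Cxcr2 gave 2.26 ± 0.21 (FDR 7.93e-06). Levels were low and uneven. Camp, an antimicrobial peptide of secondary granules, stood at 0.702, 17.7, 1.24 and 1.45 CPM in MPP3, high in mouse 2 alone, and was not called (FDR 0.124). The summed level of all 15 genes was 44.2 to 138 CPM in MPP3 and 33.3 to 52.0 CPM in MPP4, and Ly6g, the defining antigen, had 0 counts in all MPP3 libraries.

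**Figure D3:**
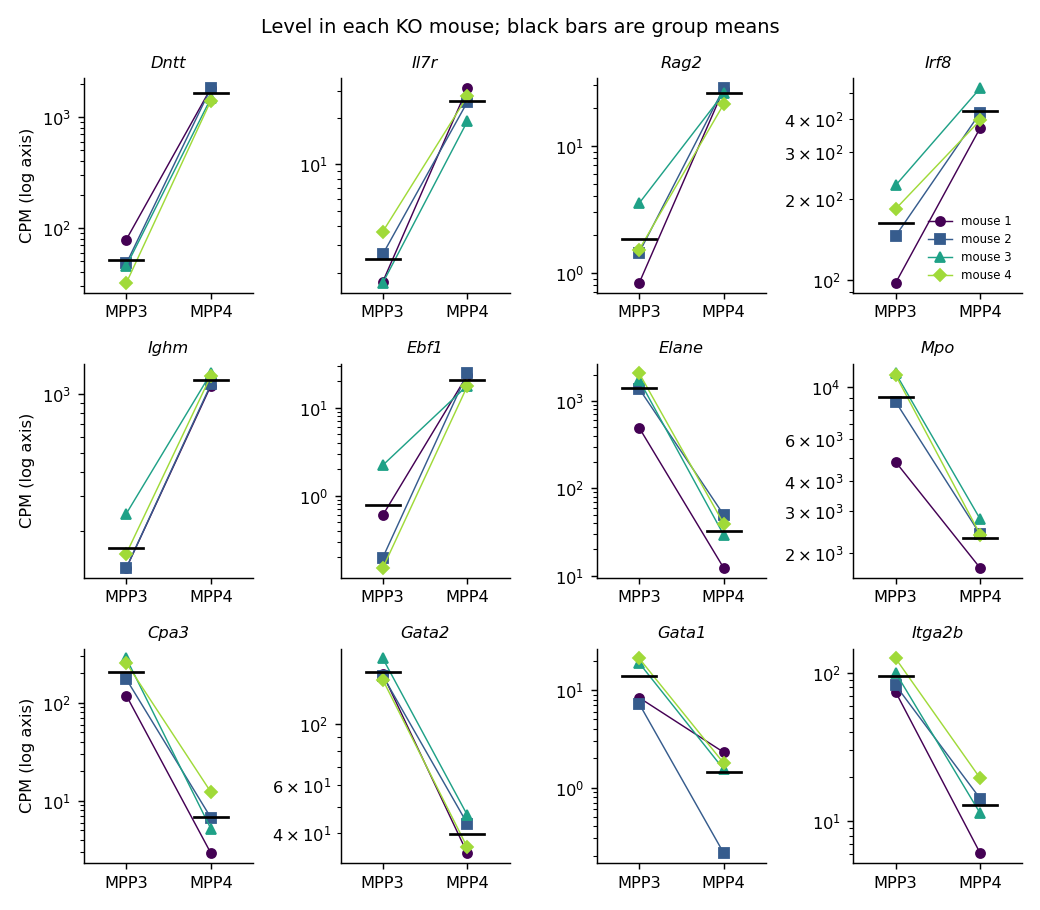
CPM (log axis) of 12 genes in the MPP3 and MPP4 library of each KO mouse, joined by a line per mouse, with group means as black bars. Dntt, Il7r, Rag2, Irf8, Ighm and Ebf1 fall on the MPP4 side and Elane, Mpo, Cpa3, Gata2, Gata1 and Itga2b on the MPP3 side in all 4 mice, and no panel has overlapping populations.

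Mast cell and basophil genes were mostly higher in MPP3. Of 19 tested members, 18 were called higher in MPP3 and 0 lower, against 14.7% of all tested genes, with a median of 1.98 that is the same with Gzmb and Cma1 at their bounds. Without the gate antigen Kit, 17 of 18 were called higher. Of the 19, 7 passed the filter through MPP3 alone (Gzmb, Cma1, Ms4a2, Alox5, Slc45a3, Tpsb2 and Mitf). Of the 12 that passed in both populations, 11 were called higher. All 19 had positive values, and Csf2rb2, a near copy of Csf2rb, was not called (FDR 0.212). Cpa3, the carboxypeptidase of mast cell granules, measured 119, 175, 284 and 255 CPM in MPP3 of mice 1 to 4 and 2.93, 6.73, 5.19 and 12.3 CPM in MPP4, a 31.5-fold difference (4.98 ± 0.18, FDR 3.19e-09). Ms4a2, the beta chain of the IgE receptor, measured 2.91, 13.0, 23.7 and 19.3 CPM against 0, 0.874, 0 and 0.711 CPM (5.25 ± 0.57, FDR 2.85e-05). Gata2, a transcription factor of stem cells and mast cells, was even among mice at 153, 151, 174 and 146 CPM in MPP3 and 33.7, 43.3, 46.5 and 35.5 CPM in MPP4 (1.98 ± 0.08, FDR 4.62e-09). The level of Gata2 was thus about 4-fold higher in MPP3 with no overlap.

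Some members were not detected in MPP4 at this depth. Gzmb, granzyme B, had 65, 91, 325 and 321 counts in MPP3 and 0 counts in each MPP4 library. With 3 counts per library as the limit, the mean level in MPP3 was at least 59.6-fold higher, with mice 1 and 2 below mice 3 and 4. Cma1, a mast cell chymase, likewise had 0 counts in all 4 MPP4 libraries against a mean of 3.74 CPM in MPP3, at least 41.8-fold higher. Slc45a3 (3.78 against 0.0731 CPM) and Tpsb2, a tryptase (3.11 against 0.0683 CPM), came close to that. Hdc, which makes histamine, had a log2 fold change of 4.17 ± 0.31, the lipoxygenase gene Alox5 4.13 ± 0.39, the basophil protease gene Prss34 2.26 ± 0.35 and Mcpt8 1.24 ± 0.10. Genes shared with many blood progenitors differed less, such as Srgn, the proteoglycan of storage granules (894, 882, 886 and 888 against 539, 551, 570.3 and 573 CPM, 0.67 ± 0.04). The summed level of the 24 listed genes was 2554 to 2920 CPM in MPP3 and 1361 to 1628 CPM in MPP4. Fcer1a, the defining IgE receptor chain, was too rare to test, with 40, 40, 64 and 147 counts in MPP3 and 2, 9, 5 and 14 in MPP4.

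The promoters of Cpa3 and Ms4a2 are shown because both genes stand among the 12 largest differences in the direction of MPP3 and both hold AGATAA, in capitals on either strand. The Cpa3 window lies at chr3:20242132-20242431, minus strand, and the Ms4a2 window, which has 3 matches, at chr19:11623670-11623969, minus strand (GRCm38.p6, RefSeq).
Cpa3: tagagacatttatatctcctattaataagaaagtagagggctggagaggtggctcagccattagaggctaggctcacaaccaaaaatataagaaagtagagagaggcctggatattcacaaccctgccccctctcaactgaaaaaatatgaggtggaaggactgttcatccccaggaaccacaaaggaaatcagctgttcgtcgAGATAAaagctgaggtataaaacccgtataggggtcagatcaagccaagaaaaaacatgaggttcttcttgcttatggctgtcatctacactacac
Ms4a2: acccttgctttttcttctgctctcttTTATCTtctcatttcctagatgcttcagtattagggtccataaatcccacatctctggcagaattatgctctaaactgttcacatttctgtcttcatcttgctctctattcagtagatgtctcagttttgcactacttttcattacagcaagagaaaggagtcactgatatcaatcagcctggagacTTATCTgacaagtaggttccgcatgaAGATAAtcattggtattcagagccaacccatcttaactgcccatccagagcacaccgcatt
Of those 12 genes, all had a promoter in the table and 5 held AGATAA in at least 1 window (Fgf3, Ms4a2, Cpa3, Gp5 and Sox6), against 7.74% of tested genes. Of the 12 largest differences in the direction of MPP4, 6 had a promoter and 2 held it.

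Erythroid genes were higher in MPP3 in 10 of 14 tested members and lower in 1, with a median of 0.738. Of the 11 that passed the filter in both populations, 7 were called higher and 1 lower. Gata1, Klf1 and Mfsd2b passed through MPP3 alone, so that their higher values there are a description. Gata1, the master factor of the erythroid, megakaryocyte and mast cell branches, measured 8.35, 7.22, 19.0 and 21.1 CPM in MPP3 and 2.30, 0.212, 1.54 and 1.78 CPM in MPP4 (3.36 ± 0.38, FDR 3.64e-05). Klf1, a driver of globin transcription, measured 5.26, 4.50, 6.67 and 11.7 CPM against 0.804, 0.424, 3.18 and 3.01 CPM (2.20 ± 0.36, FDR 0.000679). Both were low genes with no overlap between the populations. Mfsd2b, a sphingosine-1-phosphate transporter of red cells, measured 3.80, 4.01, 9.26 and 13.0 CPM against 0.0574, 0, 0.475 and 1.07 CPM (4.65 ± 0.50), Tal1 gave 0.92 ± 0.12 and Nfe2 0.72 ± 0.05. The haemoglobin genes Hba-a1 (-0.19 ± 0.27), Hbb-bs (0.03 ± 0.34) and Hbb-bt (0.41 ± 0.20), which are near copies within their families, were not called. Tfrc, the transferrin receptor, was the member called lower in MPP3 (-0.53 ± 0.13, FDR 0.0107), and Epor stayed under the filter with 76, 61, 91 and 106 counts in MPP3 and 9, 1, 9 and 17 in MPP4.

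Megakaryocyte genes were higher in MPP3 in 11 of 13 tested members and lower in Nbeal2 (-0.37 ± 0.11), with a median of 0.935. Of the 11 that passed the filter in both populations, 9 were called higher. Pf4 passed through MPP3 alone, as did Gp5 outside the list. Itga2b, which encodes CD41, measured 74.4, 82.6, 100.4 and 125 CPM in MPP3 and 6.08, 14.2, 11.3 and 19.5 CPM in MPP4 (2.97 ± 0.15, FDR 3.47e-08). Selp, which encodes P-selectin, measured 73.8, 72.3, 76.7 and 102 CPM against 12.7, 11.7, 16.6 and 19.1 CPM (2.45 ± 0.10, FDR 4.85e-09). Both were more than 5-fold higher in MPP3, with no overlap. Cd9, a tetraspanin gene, had 89.8 ± 6.03 against 33.5 ± 3.06 CPM (1.43 ± 0.09). Pf4, platelet factor 4, stayed low at 3.51, 1.84, 5.06 and 4.87 CPM in MPP3 and 1.15, 0.689, 1.499 and 1.45 CPM in MPP4 (1.64 ± 0.28, FDR 0.00110). Gp5, a platelet glycoprotein gene outside the list, measured 7.78, 7.95, 11.9 and 15.8 CPM against 0.0574, 0.980, 0.695 and 0.492 CPM (4.39 ± 0.44, FDR 1.36e-05). Its promoter (chr16:30310732-30311031, minus strand, GRCm38.p6, RefSeq) is shown as the platelet gene among the largest differences and holds AGATAA at 2 places, in capitals as TTATCT.
Gp5: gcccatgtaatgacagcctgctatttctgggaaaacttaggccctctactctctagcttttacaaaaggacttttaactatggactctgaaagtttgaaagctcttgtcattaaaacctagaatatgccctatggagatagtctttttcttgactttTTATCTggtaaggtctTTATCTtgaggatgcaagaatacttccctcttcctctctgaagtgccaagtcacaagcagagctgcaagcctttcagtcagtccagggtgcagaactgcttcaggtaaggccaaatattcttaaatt

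Stem cell genes were split. Of 22 tested, 11 were called higher in MPP3, 2 lower and 9 not at all, with a median of 0.371. The 9.09% called lower were below the 15.7% of all tested genes, and of the 21 that passed the filter in both populations 10 were called higher and 2 lower. The endothelial and stem cell adhesion gene Esam measured 51.1, 44.2, 40.0 and 46.0 CPM in MPP3 and 5.54, 10.1, 7.24 and 7.13 CPM in MPP4 (2.61 ± 0.16, FDR 2.23e-07). Tie1 (1.60 ± 0.10), Pdzk1ip1 (1.72 ± 0.12) and Angpt1 (1.10 ± 0.10), the ligand of the receptor encoded by Tek, were higher in MPP3 with no overlap. Procr, the protein C receptor, measured 44.1, 44.1, 23.0 and 25.1 CPM in MPP3 and 15.4, 18.6, 14.4 and 20.01 CPM in MPP4, with the MPP3 levels of mice 1 and 2 above those of mice 3 and 4 (0.94 ± 0.17, FDR 0.00165). The self-renewal factors Meis1 (0.57 ± 0.06), Hlf (0.53 ± 0.08) and Mecom (0.58 ± 0.14) were modestly higher. Hoxa9 (-0.62 ± 0.09) and Hoxa7 (-0.41 ± 0.07) were lower, and Cd34 was not called (-0.09 ± 0.04, FDR 0.183).

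Of 42 lineage transcription factor genes tested, 18 were called higher in MPP3 and 14 lower, with a median of 0.0723. Of the 38 that passed the filter in both populations, 15 were called higher and 13 lower. Gata1 and Klf1 passed through MPP3 alone and Ebf1 through MPP4 alone. Gata1, Klf1, Gata2 and Gata3 lay furthest on the MPP3 side, and Ebf1, Notch1, Satb1, Ets1 (-1.47 ± 0.15), Irf8 and Mef2c lay furthest on the other. Among the 10 not called were Runx1 (0.07 ± 0.06, FDR 0.386), Lmo2 (0.07 ± 0.06, FDR 0.475) and Myc (0.03 ± 0.05, FDR 0.742), whose levels were 1045 and 1015 CPM. Mycn was lower in MPP3 (-0.62 ± 0.10, FDR 0.000497) and Myb higher (0.27 ± 0.05, FDR 0.00241).

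Of 29 cytokine receptor genes tested, 8 were called higher in MPP3 and 14 lower, with a median of -0.218. The 27 that passed the filter in both populations held 8 called higher and 12 lower. Il7r and Lifr passed through MPP4 alone. Among those higher in MPP3 were the receptors for G-CSF (Csf3r, 0.47 ± 0.05) and GM-CSF (Csf2ra, 0.44 ± 0.11, and Csf2rb, 0.44 ± 0.07). With them came Il12rb2 (0.50 ± 0.18), Ifngr1 (0.27 ± 0.05) and Tnfrsf1a (0.21 ± 0.07). These counts hold the gate antigens Kit and Flt3, which are no findings, and without them 7 of 27 were higher and 13 lower. Lower in MPP3 were Il7r, the receptors for IL-1 (Il1r1, -1.25 ± 0.12) and IL-18 (Il18r1, -1.45 ± 0.23), and gp130 (Il6st, -1.21 ± 0.10) with its partners Il6ra (-0.71 ± 0.10) and Lifr (-3.69 ± 0.41, 0.480 against 5.62 CPM). Csf1r was lower as described, Il10ra, Ifnar2, Il4ra, Il21r and Il17ra gave values from -0.86 to -0.45, and Ifnar1 gave -0.22 ± 0.08. Il3ra, the IL-3 receptor chain, was not called (0.04 ± 0.11, FDR 0.815).

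**Figure D4:**
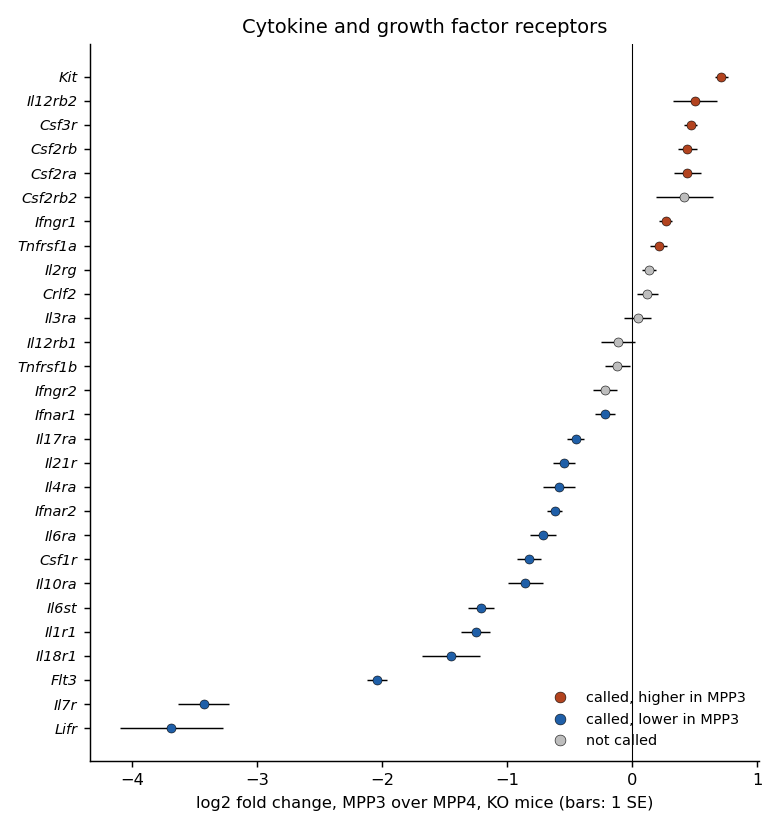
Log2 fold change of MPP3 over MPP4 in KO mice (x axis) with bars of 1 SE for 28 tested cytokine and growth factor receptor genes (rows), coloured where called. The values run from -3.69 for Lifr to 0.71 for Kit, with 14 of the genes drawn called on the MPP4 side and 7 on the MPP3 side.

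Of 18 homing and adhesion genes tested, 8 were called higher in MPP3 and 7 lower. Among the 16 that passed the filter in both populations, 8 were higher and 5 lower. Ccr9 passed through MPP4 alone. S1pr1, the receptor that guides cells into blood and lymph, measured 17.9, 21.6, 18.5 and 19.4 CPM in MPP3 and 5.37, 8.24, 5.67 and 4.95 CPM in MPP4 (1.70 ± 0.16, FDR 7.43e-06), and the integrin gene Itga6 gave 0.92 ± 0.11. Ccr9, which guides cells to thymus and gut, measured 0.859, 0.591, 1.37 and 0.900 CPM in MPP3 against 9.67, 7.95, 9.58 and 11.6 CPM in MPP4 (-3.41 ± 0.27, FDR 1.87e-06). The selectin ligand gene Selplg (-0.40 ± 0.04), Cd44 (-0.42 ± 0.05), Itgb7 (-0.64 ± 0.10) and Cxcr4 (-0.67 ± 0.18), the receptor that holds cells in the marrow, were lower in MPP3.

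Mitosis genes were lower in MPP3. Of 22 mitosis genes tested, 21 were called lower in MPP3 and none had a positive value, all having passed the filter in both populations, with a median of -0.397 and within-mouse medians of -0.541 to -0.287. Ube2c, a ubiquitin enzyme of the anaphase complex, measured 106, 121, 109 and 129.8 CPM in MPP3 and 176, 199, 153 and 189 CPM in MPP4 (-0.62 ± 0.06, FDR 1.52e-05). Nusap1 (-0.59 ± 0.07), Kif23 (-0.65 ± 0.08), Cdc20 (-0.40 ± 0.05), Top2a (-0.40 ± 0.05) and Mki67 (-0.36 ± 0.06) were lower with it, and Bub1 was not called (-0.12 ± 0.08). Of 32 DNA replication genes, 26 were not called, 5 were lower and 1 was higher, with a median of -0.0584. The 15.6% called lower were close to the 15.7% of all tested genes, and 2 members were called without the replicate block. The helicase gene Mcm2 (0.01 ± 0.05, FDR 0.953) and Pcna (-0.04 ± 0.05, FDR 0.610) were not called, while Pold1 (-0.34 ± 0.07, FDR 0.00317), Gins2 (-0.33 ± 0.08, FDR 0.00632) and Pola2 (-0.20 ± 0.06, FDR 0.0247) were lower and Pola1 (0.22 ± 0.06, FDR 0.0243) higher.

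Of 20 interferon response genes tested, 7 were called lower in MPP3 and 2 higher, against 15.7% and 14.7% of all tested genes, with a median of -0.133. The 18 that passed the filter in both populations held 6 called lower and 2 higher. Mx1 passed through MPP4 alone. Without the replicate block 2 were called. Irf7, an amplifier of the response, measured 31.8, 38.2, 74.9 and 42.7 CPM in MPP3 and 57.5, 55.0, 135 and 62.0 CPM in MPP4. Both libraries of mouse 3 were high, and the populations overlapped although each mouse was lower in MPP3 (-0.69 ± 0.09, FDR 8.78e-05). Mx1 (-1.40 ± 0.30) and Bst2 (-0.37 ± 0.06) were lower, Rsad2 was higher (0.64 ± 0.13, FDR 0.00421), and Isg15 (-0.02 ± 0.15) was not called.

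Several of the largest differences lay outside the lists. Fgf3, Sox6, Cldn15, Gda, Chst13, Camkv, Ctnnd2, Gfra1 and Arpp21 passed the filter through a single population, so that their direction is a description. On the MPP3 side, Fgf3, a fibroblast growth factor gene, measured 19.3, 28.0, 25.6 and 34.3 CPM in MPP3 and 0.717, 0.477, 0.585 and 0.793 CPM in MPP4 (5.36 ± 0.21, FDR 4.75e-09). Sox6, a factor that represses embryonic globin, measured 36.7, 25.1, 31.8 and 37.7 CPM against 0.143, 2.33, 1.90 and 2.38 CPM (4.38 ± 0.42, FDR 1.05e-05). Both were evenly high in MPP3 of all mice, unlike Cldn15, a claudin gene, at 3.98, 13.6, 19.5 and 21.8 against 0, 1.03, 0.585 and 0.137 CPM (5.23 ± 0.49). Gda, guanine deaminase, had 7.69 ± 3.85 against 0.0571 ± 0.0709 CPM, and Chst13, a sulfotransferase gene, 5.95 ± 3.12 against 0.225 ± 0.154 CPM. On the MPP4 side, Camkv had 0 counts in all 4 MPP3 libraries and 283, 381, 126 and 233 counts in MPP4, with a mean level at least 88.3-fold lower in MPP3. Ctnnd2, a catenin gene, likewise had 0 counts in MPP3 and 195, 138, 188 and 194 in MPP4, with a mean level at least 64.8-fold lower. Gfra1, a receptor for GDNF, measured 0.0781, 0, 0 and 0.400 CPM in MPP3 and 13.8, 16.3, 6.47 and 11.6 CPM in MPP4 (-6.66 ± 0.57, FDR 3.86e-06). Arpp21 measured 0.859, 1.281, 1.21 and 2.25 CPM against 57.7, 41.4, 48.1 and 55.7 CPM (-5.21 ± 0.20, FDR 4.62e-09), and Klhl30 (-6.20 ± 0.69) and Rasal1 (-5.59 ± 0.51), a regulator of Ras, were lower in MPP3 to a like degree.

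The same comparison in the WT mice, made in other animals and with no shared library, called 2565 of 11725 genes (21.9%), 1120 higher in MPP3 (9.55%) and 1445 lower (12.3%). Of these, 1923 were called in KO mice in the same direction, which was 54.6% of the KO calls and 75.0% of the WT calls, and 3 were called in opposite directions (Abcd2, mt-Rnr2 and Rpsa-ps10, named after their values were seen). Across the 11465 genes tested in both, Pearson's r of the log2 fold changes was 0.879 and Spearman's rho was 0.707, given as a description over genes, which are not independent. A further 1539 KO calls were tested but not called in WT mice, 1390 of them with the same sign there and 0 with a tested difference between KO and WT at an FDR under 0.1. Within the lists, 22 of 23 lymphoid priming calls, 17 of 21 granulocyte and monocyte calls, 12 of 13 monocyte and dendritic cell calls, 12 of 18 mast cell and basophil calls and 19 of 21 mitosis calls were also made in WT mice in the same direction. Of the 18 mast cell and basophil calls, 3 (Cma1, Gzmb and Tpsb2) were not tested in WT mice. The lowest shares were those of the B progenitor list, with 2 of 5 calls, and the DNA replication list, with 2 of 6.

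The difference between the KO and the WT effect was tested in a fit of all 16 libraries. Of 11831 genes, edgeR called 2 (0.0169%), with 696 at an unadjusted p under 0.05, and the DESeq2 Wald test called 28. Mt1, which encodes a metallothionein that binds zinc, was not called between populations in KO mice, at 142, 159.8, 107 and 142 CPM in MPP3 and 143, 176, 91.3 and 128 CPM in MPP4 (0.05 ± 0.07, FDR 0.627). In WT mice it measured 25.7, 23.7, 9.45 and 19.0 CPM in MPP3 and 5.23, 4.18, 3.65 and 5.57 CPM in MPP4 (1.98 ± 0.21, FDR 0.000118). The KO effect minus the WT effect was -1.93 ± 0.19 (FDR 0.00158), and the Mt1 level of each KO library was above that of each WT library. Tek, whose promoter drives the Cre of these mice, was higher in MPP3 in both genotypes by different amounts. It measured 24.4, 20.6, 28.3 and 32.0 CPM in MPP3 and 14.0, 13.7, 9.32 and 14.0 CPM in MPP4 of KO mice (1.04 ± 0.16, FDR 0.000536), and 31.0, 33.1, 18.9 and 16.9 CPM and 5.02, 5.30, 2.12 and 1.64 CPM in WT mice (2.93 ± 0.18, FDR 2.74e-06). The difference was -1.89 ± 0.25 (FDR 0.0230), and the 4 MPP4 libraries of KO mice lay above the 4 of WT mice. The call was lost in 5 of 16 alternatives, without the replicate block, with filterByExpr, and without KO replicate 2, WT replicate 3 or WT replicate 4. For Ebf1 the effect was -5.05 in the fit of KO mice and -2.05 in that of WT mice, and the difference estimated in the fit of 16 libraries was -3.17 ± 0.86, which was not called (FDR 0.690). The same held for Ighm (-2.90 in KO and -1.59 in WT, FDR of the difference 0.690) and Elane (5.43 and 4.66, FDR 0.690).

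**Figure D5:**
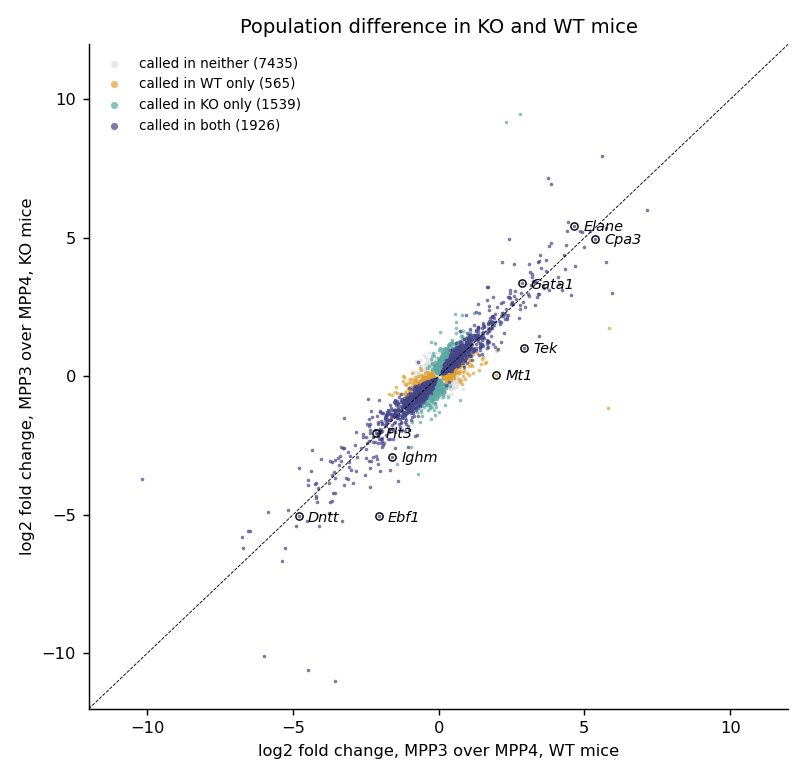
Log2 fold change of MPP3 over MPP4 in KO mice (y axis) against that in WT mice (x axis), 1 point per gene tested in both, coloured by where it was called, with the line of equality dashed. Of the 1926 genes called in both, 1923 have the same sign in both, and Mt1 and Tek lie below it with KO values of 0.05 and 1.04 against WT values of 1.98 and 2.93.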

How the data were processed

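Poly(A) RNA of sorted cells was sequenced in paired reads of 100 bases. Per the study's methods and the submitters' processing notes, the authors trimmed the reads, aligned them to mm10 (STAR 2.7.3a) and summarised them over genes (featureCounts 2.0.0). The authors deposited raw read counts per gene, one table per population, which were used here without change. A deposited table of normalised values was not used. Annotation release and strand use are not given in the sources used here, so counts of overlapping genes (42 of the 104 named) are uncertain. The methods filtered genes on a mean above 100 counts in any group and tested all groups together with DESeq2 1.28.1 at an FDR under 0.1.

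Here genes with a mean above 100 counts in MPP3 or MPP4 of KO mice were tested with edgeR 4.0.16 under R 4.3.3 (TMM, quasi-likelihood F-test, legacy deviances), with mouse as a block, and adjusted by Benjamini-Hochberg over all genes tested. The same fit was made in WT mice, and the difference between genotypes was tested over 16 libraries. CPM is the count scaled to a common total by the TMM-adjusted library size. Replicates differed beyond sampling noise (chi-square per gene 28.7 to 52.1) and were kept apart. Deviations from the population means of libraries with the same number correlated at 0.428, 0.554, 0.494 and 0.516, against at most 0.0405 for other pairs. The labels give both libraries of a number the same sex and age, and the number was taken to mark the mouse. With the block, p-values of the KO fit measure how the difference between populations varied among these 4 mice. Those of the WT fit rest on the 4 WT mice, and those of the difference on the mice of both genotypes. Reads carried no molecular identifiers, so limits cover counting error only.

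Gene symbols and coordinates came from a GENCODE annotation of GRCm38 (47310 of 47937 identifiers matched), and promoters from RefSeq (GRCm38.p6). Of 369 genes in 20 lists, 367 had an identifier and 287 were tested. The genes named were the 12 largest called differences in each direction without overlap and in the same direction in all 4 mice, with at least 5 CPM in the higher population and no predicted-gene, Rik or accession name, the 4 smallest p-values of each list, the 6 smallest for the difference between genotypes, and fixed sets of gate antigens and lineage regulators. Some genes that the rule or the lists hold are not reported here. Other list members are named as examples chosen after their values were seen. The members and lists were chosen with earlier results of these data known. DESeq2 1.42.0 and the other alternatives in the closing section were fitted on the same counts. The fits were also tested on simulated counts with a fixed dispersion and no difference between mice, which cannot check the block.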

Additional observations from a re-analysis of the deposited data

Results flagged for a closer look

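Within-mouse log2 ratios of MPP3 to MPP4, taken on CPM with a pseudocount of 1, were checked for a mouse far from the other 3 in 103 named genes, and 8 genes had such a mouse. Chance gives about 1 in 20 genes. Gata1 stood at 1.51 in KO mouse 1 against 2.76 to 2.99 in the others, and Itgax at -0.479 in mouse 4 against -2.60 to -2.36. Mouse 3 was the one apart in the remaining 6. Its ratio was -2.37 for Ighm against -3.10 to -3.01 in the others, and -3.38 for Ighv1-82 against -2.78 to -2.67. It was 5.66 for Igkc and 3.58 for Iglc1, where the other 3 mice had 0. It was 0.192 for Spi1 against 0.0881 to 0.103, and 0.434 for Tal1 against 1.01 to 1.11.

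Mt1 and Tek were flagged because the population effect differed between KO and WT mice. The KO effect minus the WT effect was -1.93 for Mt1 and -1.89 for Tek on the log2 scale. Over 16 alternatives the FDR of this difference ranged from 2.80e-23 to 0.383 for Mt1 and from 4.74e-09 to 1 for Tek. It missed the threshold in 1 of them for Mt1, the fit without the replicate block, and in 5 for Tek. Tek lost the call without the replicate block, with filterByExpr (0.119), and without KO replicate 2 (0.116), WT replicate 3 (0.114) or WT replicate 4 (0.115).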

How the results depend on the processing

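The count of KO calls stayed within 1.5 times of 3524 under 13 of 15 alternatives, at 2486 to 3160 without each mouse in turn (1227 to 1578 higher and 1259 to 1582 lower in MPP3), 3563 with DESeq2 and 2770 at an FDR under 0.05. It fell to 1967 without the replicate block (930 higher, 1037 lower) and to 2116 in a fit of all 16 libraries with no replicate block (1030 higher, 1086 lower), and was 3346 in that fit with the block. The numbers paired the libraries, and the block therefore belongs to the main fit. For WT mice 1601 genes were called without the replicate block and 1540 to 2462 without each mouse, the lowest without replicate 4. The share of KO calls also made in WT was 39.4% to 61.6% without each mouse. The difference between genotypes called 2 genes, 0 without the replicate block (270 at an unadjusted p under 0.05), 1 with filterByExpr, 28 with DESeq2 and 1 to 3 without each mouse. The called list members numbered 203, and 164 without the replicate block. Of 98 named genes called, 86 kept the call under every alternative run for them. The other 12 were Bach2, Cd48, Igkc, Iglc1, Irf7, Pola1, Pola2, Rsad2, S100a9, Spi1, Tcf3 and Xbp1, and all of these but Igkc lost it in a fit without the block. The log2 fold changes that changed sign belonged to genes not called, which without each mouse ran from -0.0595 to 0.156 for Cebpa, from -0.00122 to 0.123 for Mt1 and from -0.0213 to 0.105 for Ptprc. The cause of these changes was not tested. A quasi-likelihood fit with newer deviances, added after seeing the data, called 3727 genes. Genes with means under 100 counts in both populations, such as Fcer1a, Slamf1 and Pax5, were not tested.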

Other observations

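The 4 next smallest p-values for the difference between the KO and the WT population effect belonged to Arpp21, Abcd2, Idh1 and I830127L07Rik, none of which passed the threshold. Abcd2, a peroxisomal transporter of very long chain fatty acids, measured 20.6, 24.8, 24.1 and 20.6 CPM in MPP3 and 12.7, 18.8, 16.2 and 15.6 CPM in MPP4 of KO mice, higher in MPP3 of each mouse (log2 fold change 0.52 ± 0.12, edgeR FDR 0.00831). In WT mice it measured 12.5, 7.43, 9.13 and 10.4 CPM in MPP3 and 13.9, 12.3, 20.2 and 18.0 CPM in MPP4, lower in MPP3 of each mouse (-0.71 ± 0.18, FDR 0.0256). The difference between these effects had an FDR of 0.185. Idh1, the cytosolic isocitrate dehydrogenase, was higher in MPP3 in both genotypes, by 1.21 ± 0.07 in KO and 0.61 ± 0.09 in WT mice, with an FDR of 0.185 for the difference. Arpp21 was lower in MPP3 in both, at -5.21 ± 0.20 in KO and -3.33 ± 0.21 in WT mice (FDR of the difference 0.185), and I830127L07Rik was higher in both, at 4.95 ± 0.30 and 2.40 ± 0.38 (0.289).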
